A study of Danio rerio with 2 samples.

Results

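The complement and acute phase genes described here are c3a, c3b, c6, c9, cfb, crp, socs3b and il1b, chosen by name as the rows of the deposited expression table whose gene symbol equals one of these. All 8 were found, in 9 rows, since c6 has 2 rows, out of 29358 symbols in 33733 rows. The study sequenced RNA of whole zebrafish larvae 5 days after fertilization and asked which genes differ between lri35 mutants and their wild-type siblings. There was 1 library of homozygous lri35 mutants and 1 library of wild-type siblings of the same clutches, each from a pool of 20 larvae of the AB/TL background. The sample labels spell the allele lir35, do not name the gene it affects and mention no other treatment or allele.

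Complement is a cascade of plasma proteins that marks microbes and damaged cells for removal and can pierce their membranes. Most of these proteins are made by hepatocytes and secreted into the blood. In the acute phase response, inflammatory cytokines act on the liver, largely through JAK-STAT and NF-kB signalling, and raise the output of complement and other plasma proteins. C-reactive protein is a classical acute phase protein of humans, interleukin-1 beta is a cytokine that starts the response, and SOCS3 is a feedback inhibitor that limits it.

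Values are FPKM, fragments scaled to gene length and to the number of mapped fragments, so levels of different genes can be compared per length. With 1 library per genotype there is no spread between replicates, no test across samples was possible, and each difference compares the 2 libraries. The log2 difference is log2((mutant FPKM + 1)/(wild-type FPKM + 1)), and each fold of a single gene is its FPKM in one library divided by that in the other. Counts of genes past 2-fold or 1.5-fold, and the shares of all genes beside them, are taken on the log2 difference, which shrinks the difference of low genes. Summed FPKM was 874244 in the mutant library and 875340 in the wild-type library, and low values placed the mutant library at about 1.25 times the counted fragments of the wild-type library.

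None of the 8 genes was 2-fold different between the libraries, and the most abundant ones, c9, socs3b, cfb and c3a, differed by at most 1.103-fold. The largest differences were those of crp, c3b and c6, which were 1.81-fold, 1.67-fold and 1.36-fold lower in the mutant library than in wild-type siblings. In pooled whole larvae, fewer cells of a type and less RNA per cell cannot be told apart. Hepatocyte markers, a list chosen with earlier results of these data known, were lower beside them, 14 of 16 with a median log2 difference of -0.33. Over all genes averaging 1 FPKM or more, 50.9% were lower. The summed level of the markers, set mostly by apoa2, was 10314 FPKM in the mutant library and 10327 FPKM in the wild-type library. The part of these markers in the values of crp, c3b and c6 was not tested. Of the 8 genes, 2 were higher and 6 lower in the mutant library, where 49.1% of the genes averaging 5 FPKM or more were lower. Each of the 8 averaged 5 FPKM or more over both libraries, c6 as the sum of its 2 rows, so none was removed by a filter on low values. The smaller c6 row alone averaged 3.88 FPKM. Their median log2 difference was -0.12, beside a median of 0.01 over the 11557 genes averaging 5 FPKM or more.

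**Figure D1:**
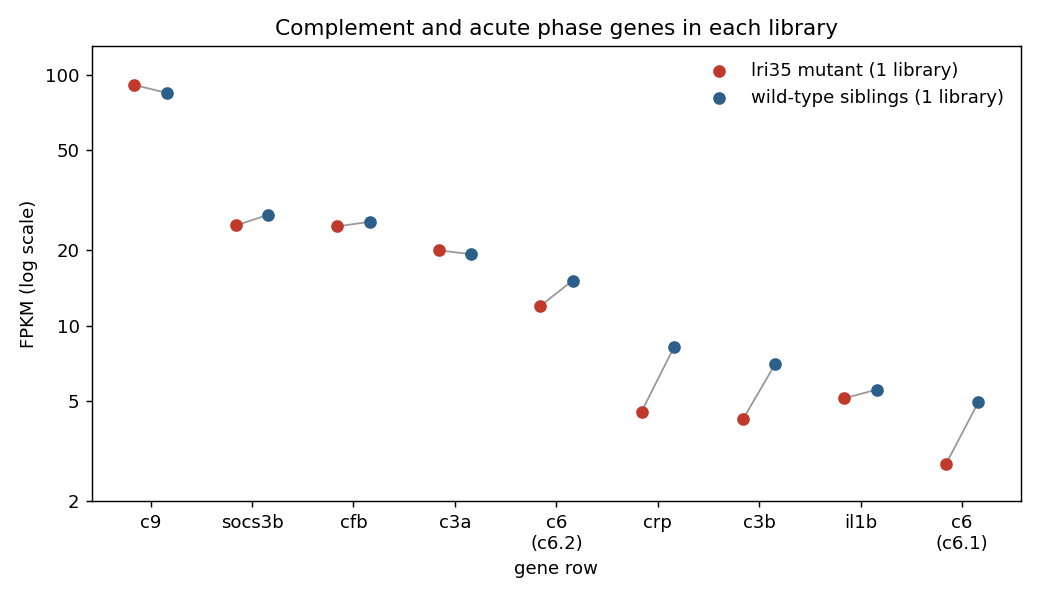
FPKM on a log scale (vertical axis) of each row of the 8 genes (horizontal axis, from high to low mean), in the lri35 mutant library (red, left of each pair) and the wild-type sibling library (blue, right). Each point is 1 library, so there are no error bars; c6 is drawn as its 2 rows, and crp, c3b and both c6 rows are lower in the mutant library while the other rows are nearly level.

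At the 2-fold threshold, 0 of 8 genes were called in either direction, beside 5.99% of the 19112 genes averaging 1 FPKM or more and 3.05% of those averaging 5 FPKM or more. At 1.5-fold, a threshold added after the values were seen, crp and c3b were called lower and 0 were called higher. This made 2 of 8 lower, beside 5.75% lower and 5.14% higher among the genes averaging 5 FPKM or more. The central 95% of those genes lay between log2 differences of -0.85 and 0.78, and all 8 fell inside that range. Summed over the 8 genes, the mutant library held 189 FPKM and the wild-type library 198 FPKM, a 1.05-fold lower sum, of which c9 alone made up 48.0% in the mutant library and 42.6% in the wild-type library.

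**Figure D2:**
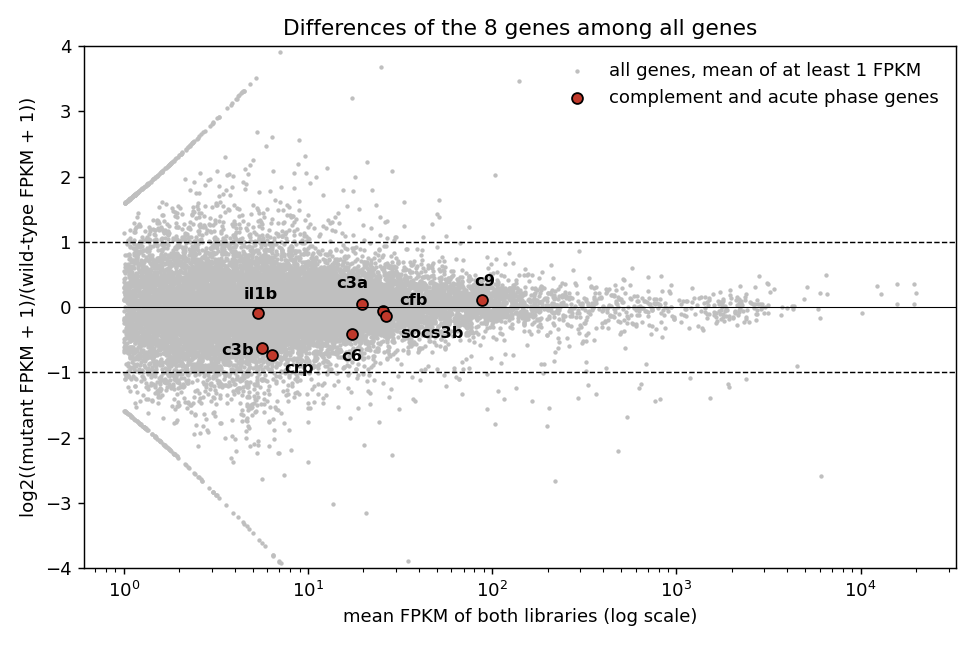
Log2 difference between the mutant and the wild-type library (vertical axis, pseudocount of 1 FPKM) against the mean FPKM of both libraries (horizontal axis, log scale) for the 19112 genes averaging 1 FPKM or more (grey) and the 8 complement and acute phase genes (red). Dashed lines mark 2-fold; all 8 lie between them, with crp and c3b closest to the lower line, and 14 genes lie outside the plotted range.

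C3 is the protein on which all routes of complement activation converge, and its cleavage product binds covalently to target surfaces. The gene c3a (ENSDARG00000012694), in the region chr1:56676992-56723747 of the Zv9 build, stood at 19.96 FPKM in the mutant library and 19.3 FPKM in the wild-type library. The libraries were nearly level, with a log2 difference of 0.05. The gene c3b (ENSDARG00000087359), at chr1:56776444-56813502 in a region it shares with a 5S rRNA row listed at 0, stood at 4.24 FPKM in the mutant library and 7.06 FPKM in the wild-type library. It was 1.67-fold lower in the mutant library, with a log2 difference of -0.62. Of the genes averaging 5 FPKM or more, 5.17% had a lower difference than c3b.

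Zebrafish carry several copies of the C3 gene, and the deposited table holds 9 rows for them, 7 on chromosome 1 and 2 on chromosome 22. The current gene name table calls the row c3a by the name c3a.1 and the row c3b by the name c3a.2, so both members belong to the chromosome 1 group. The next row on that chromosome, c3c (now c3a.3), stood at 2.30 FPKM in the mutant library and 4.92 FPKM in the wild-type library, 2.14-fold lower as a plain ratio and -0.84 on the log2 scale. The row C3 (3 of 9), now c3a.6, was nearly level at 3.18 FPKM in the mutant library and 3.43 FPKM in the wild-type library.

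The C3 rows differed among themselves within 1 chromosomal group: the abundant c3a was level, while its neighbours c3b and c3c were lower in the mutant library. C3 (7 of 9) was listed at 0 in the mutant library and at 1.82 FPKM in the wild-type library, and 2 further chromosome 1 rows were listed at 0 in both. On chromosome 22, the row C3 (1 of 9), now c3b.2, stood at 3.96 FPKM in the mutant library and 4.72 FPKM in the wild-type library. Its neighbour C3 (8 of 9), now c3b.1, stood at 3.07 FPKM in the mutant library and 3.40 FPKM in the wild-type library. Summed over the 9 rows, C3 expression was 36.7 FPKM in the mutant library and 44.6 FPKM in the wild-type library, 1.22-fold lower. The rows are copies of one another and the files do not show how reads shared between them were assigned, so single values are uncertain. The numbered C3 rows, and below the other crp copies, bfb, C7 (2 of 2) and the row between the c6 rows, were picked out after their values were seen.

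**Figure D3:**
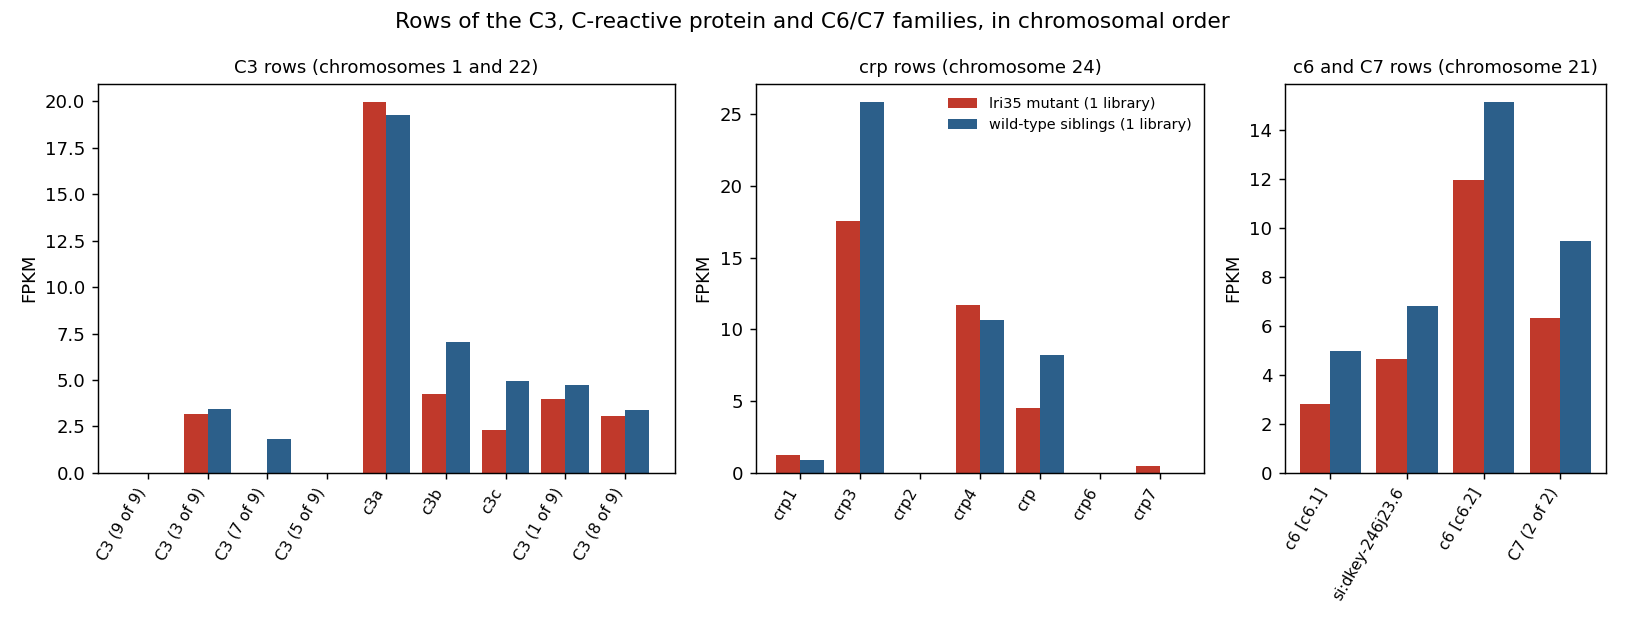
FPKM (vertical axes) of the rows of the C3 family on chromosomes 1 and 22, the crp family on chromosome 24 and the c6 and C7 rows on chromosome 21, in chromosomal order, in the mutant library (red, left) and the wild-type library (blue, right), 1 library each. The row c3a is level while c3b and c3c are lower in the mutant library, crp and crp3 are lower while crp4 is not, and all 4 rows of the chromosome 21 group are lower.

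Factor B is the protease of the alternative pathway, which joins C3b to form the enzyme that cleaves more C3. The gene cfb (ENSDARG00000055278, chr21:26810677-26825791) stood at 24.8 FPKM in the mutant library and 25.9 FPKM in the wild-type library, a log2 difference of -0.06. Its neighbour bfb stood at 5.84 FPKM in the mutant library and 7.65 FPKM in the wild-type library. The protease that activates factor B, factor D (cfd), was also nearly level, at 108 FPKM in the mutant library and 114 FPKM in the wild-type library.

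The terminal proteins C6 and C9 belong to the membrane attack complex, in which C9 polymerises into a pore. The gene c9 (ENSDARG00000016319, chr5:33979857-33994617) was the most abundant of the 8, at 90.9 FPKM in the mutant library and 84.5 FPKM in the wild-type library. This is a 1.08-fold higher level in the mutant library, with a log2 difference of 0.10. Another row in its region, si:ch211-158m24.13, was under 1 FPKM in both libraries.

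The symbol c6 covers 2 rows on chromosome 21 that now carry separate gene names, and both were lower in the mutant library. The row at chr21:19729379-19760478 (ENSDARG00000057113, now c6.2) stood at 11.96 FPKM in the mutant library and 15.1 FPKM in the wild-type library, 1.26-fold lower. The row at chr21:19623346-19668598 (ENSDARG00000093052, now c6.1) stood at 2.81 FPKM in the mutant library and 4.95 FPKM in the wild-type library, 1.77-fold lower. Summed, c6 stood at 14.8 FPKM in the mutant library and 20.1 FPKM in the wild-type library, a log2 difference of -0.42.

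The rows beside c6 were also lower in the mutant library, where 50.9% of all genes averaging 1 FPKM or more were lower. C7 (2 of 2), now c7b, stood at 6.32 FPKM in the mutant library and 9.46 FPKM in the wild-type library. It shares its region with the larger c6 row, so reads could be split between them. The row si:dkey-246j23.6, between the c6 rows, stood at 4.64 FPKM in the mutant library and 6.82 FPKM in the wild-type library. In the authors' own comparison of the 2 libraries, p was 0.24655 for C7 (2 of 2) and 0.2915 for si:dkey-246j23.6. Over the 4 rows of c6, C7 (2 of 2) and si:dkey-246j23.6 the sum was 25.7 FPKM in the mutant library and 36.4 FPKM in the wild-type library, 1.41-fold lower. The C7 gene of chromosome 8, c7a, was not lower, at 2.92 FPKM in the mutant library and 2.47 FPKM in the wild-type library. Its level was low and the authors did not test it.

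The C8 genes, whose products link C7 to C9, went both ways. The alpha chain gene c8a stood at 15.97 FPKM in the mutant library and 11.3 FPKM in the wild-type library, whereas the beta chain gene c8b stood at 7.85 FPKM in the mutant library and 11.5 FPKM in the wild-type library. These rows share 1 region of the table, so reads could be split between them. The gamma chain gene c8g was close to level, at 19.2 FPKM in the mutant library and 17.4 FPKM in the wild-type library. Of the 6 membrane attack complex genes matched by symbol, c6 and c9 among them, 4 were higher and 2 lower, with a median of 0.12. They summed to 152 FPKM in the mutant library and 147 FPKM in the wild-type library. Matched by Ensembl ID, 7 genes were measured and the median was 0.10. Over all genes averaging 1 FPKM or more, 50.9% had a lower value in the mutant library.

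C-reactive protein is a pentraxin that binds phosphocholine on microbes and dying cells and can activate complement through C1q. The gene crp (ENSDARG00000056498, now crp5, chr24:39612812-39615888) stood at 4.55 FPKM in the mutant library and 8.21 FPKM in the wild-type library. It was 1.81-fold lower in the mutant library, with a log2 difference of -0.73, the lowest of the 8 genes. Of the genes averaging 5 FPKM or more, 3.50% had a lower difference.

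The crp gene sits in a row of copies on chromosome 24, and these did not all differ the same way. The more abundant crp3 stood at 17.6 FPKM in the mutant library and 25.8 FPKM in the wild-type library, 1.47-fold lower. Its neighbour crp4 stood at 11.7 FPKM in the mutant library and 10.6 FPKM in the wild-type library, a log2 difference of 0.13. The low crp1 stood at 1.25 FPKM in the mutant library and 0.872 FPKM in the wild-type library, and crp2 and crp6 were listed at 0 in both. Over the 7 rows the sum was 35.6 FPKM in the mutant library and 45.5 FPKM in the wild-type library, 1.28-fold lower. A row on chromosome 13 with the symbol CRP in capitals, which the current table names apcs and which was noted after its values were seen, held more than all of these, at 95.4 FPKM in the mutant library and 136 FPKM in the wild-type library.

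Interleukin-1 beta and SOCS3 stand for the signal and its feedback. The gene il1b (ENSDARG00000005419, chr10:46393913-46401024) stood at 5.14 FPKM in the mutant library and 5.57 FPKM in the wild-type library, a log2 difference of -0.10. The gene socs3b (ENSDARG00000026611, chr12:37046022-37065349) stood at 25.1 FPKM in the mutant library and 27.6 FPKM in the wild-type library, a log2 difference of -0.14. These are folds of 1.08 and 1.103, both lower in the mutant library. The socs3b paralog socs3a, of similar abundance, stood at 31.6 FPKM in the mutant library and 22.5 FPKM in the wild-type library, 1.40-fold higher, and was named after its values were seen.

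The order of the 8 genes by level was c9, socs3b, cfb, c3a, c6, il1b, crp and c3b in the mutant library, and c9, socs3b, cfb, c6, c3a, crp, c3b and il1b in the wild-type library. The first places were shared, and in the lower places c6, crp and c3b each ranked lower in the mutant library. With no spread between replicates, neighbours in this order could not be tested.

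The authors' deposited table tested all 9 rows of the 8 genes and called 0 of them, beside 0.124% of the 14574 rows it tested. In the authors' deposited table c3b has the smallest p of these rows, 0.04015 before correction, with a q of 0.994. The authors' deposited table gives p = 0.29325 for crp, 0.44035 and 0.37685 for the c6 rows and between 0.643 and 0.8572 for the others. For comparison, 2.94% of the rows tested in the authors' deposited table have a p under 0.05, and c3c is one of these at p = 0.0118 with a q of 0.994. These p-values compare the 2 libraries and not the genotypes.

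The wider complement list held no gene past 2-fold on the log2 difference, although the plain FPKM ratios of c1qc, c4, masp2 and c3c, each averaging under 5 FPKM, were past it. Among all genes averaging 1 FPKM or more, 5.99% were past 2-fold on the log2 difference. The complement list had 30 measured genes (those averaging 1 FPKM or more), with c3a, c3b, c6, c9 and cfb among them. Of these 30, 17 were higher and 13 lower in the mutant library, where 50.9% of all 19112 genes were lower. The median log2 difference was 0.08, beside -0.01 over all 19112 genes. These genes were matched by symbol, which leaves out some copies. Matched by Ensembl ID, the list had 38 measured genes and a median of 0.003. Of the 30 genes matched by symbol, 3 were higher and 4 lower at 1.5-fold, beside 7.97% higher and 9.25% lower over all genes. Without those 5, the median over the other 25 genes matched by symbol was 0.15.

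Among recognition molecules and proteases, 3 of 10 measured genes were higher and 7 lower, beside 50.9% lower over all 19112 genes. The lectin pathway protease genes masp2 and masp1 had the lowest differences. They stood at 2.64 and 2.19 FPKM in the mutant library, against 5.95 and 4.37 FPKM in the wild-type library. The mannose-binding lectin gene hbl3, now mbl2, stood at 10.4 FPKM in the mutant library and 11.2 FPKM in the wild-type library and was named after its values were seen. The highest differences were those of c1qc, a C1q chain gene, and cfp, the properdin gene, both under 2 FPKM in each library.

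Among C3, C4 and C5 genes matched by symbol, 3 of 5 were higher and 2 lower, with a median of 0.05. Over all 19112 genes 50.9% were lower and the median was -0.01. At 1.5-fold, 1 of the 5 was higher and 2 lower, beside 7.97% higher and 9.25% lower over all genes. Matched by Ensembl ID, which takes in further copies, 10 genes were measured and the median was -0.10. The gene c4, of the classical and lectin pathways, stood at 5.22 FPKM in the mutant library and 2.33 FPKM in the wild-type library, a log2 difference of 0.90. The gene c5, whose cleavage starts the membrane attack complex, stood at 5.99 FPKM in the mutant library and 4.95 FPKM in the wild-type library.

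Of 9 measured regulator and receptor genes 7 were higher and 2 lower, with a median of 0.22. Over all 19112 genes 50.9% were lower, and the quartiles of the log2 difference were -0.26 and 0.23. At 1.5-fold, 1 of the 9 was higher and 0 lower, beside 7.97% higher and 9.25% lower over all genes. The highest difference was that of vtnb, a gene for vitronectin, which keeps the terminal complex out of membranes. It stood at 46.6 FPKM in the mutant library and 28.2 FPKM in the wild-type library, 1.65-fold higher. The factor H-like gene cfhl4 stood at 73.8 FPKM in the mutant library and 63.1 FPKM in the wild-type library. The C1 inhibitor gene serping1 had the lowest difference, at 5.096 FPKM in the mutant library and 7.89 FPKM in the wild-type library, and the clusterin gene clu stood at 20.8 FPKM in the mutant library and 24.3 FPKM in the wild-type library.

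**Figure D4:**
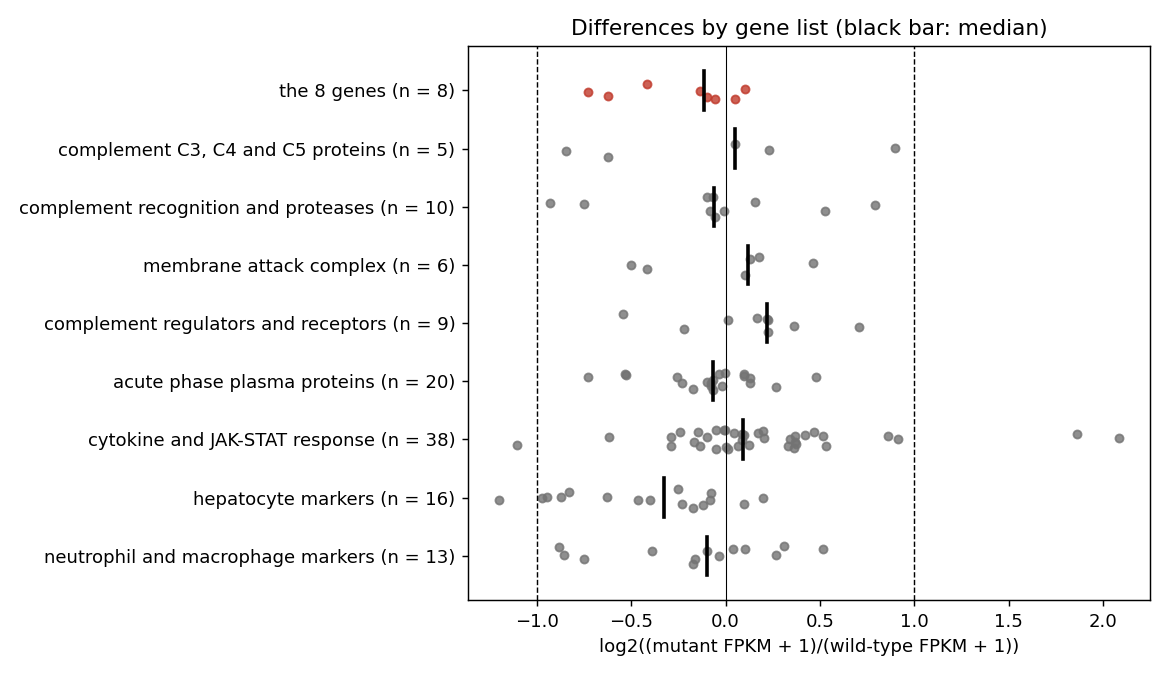
Log2 difference between the mutant and the wild-type library (horizontal axis, pseudocount of 1 FPKM) for each measured gene of the 8 genes (red) and of each wider list (grey), with the number of genes beside each name; vertical position within a row carries no value. The black bar is the median and dashed lines mark 2-fold, which 5.99% of all genes averaging 1 FPKM or more are past. Complement and acute phase genes stay between the dashed lines, the cytokine list has 3 genes outside and the hepatocyte list has 1, ahsg. Hepatocyte markers have the lowest median, at -0.33.

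Acute phase plasma protein genes were close to level at the median. Of 20 measured genes 6 were higher and 14 lower, with a median of -0.07 and none past 2-fold. The list summed to 1522 FPKM in the mutant library and 1697 FPKM in the wild-type library, 1.11-fold lower. Among all genes averaging 1 FPKM or more, 5.99% were past 2-fold in either direction. Over all genes averaging 1 FPKM or more, 50.9% were lower. The lowest differences were those of crp and crp3. The highest was that of hamp2, a hepcidin gene of iron balance, at 34.01 FPKM in the mutant library and 24.1 FPKM in the wild-type library. The abundant transferrin gene tfa stood at 454 FPKM in the mutant library and 532 FPKM in the wild-type library, and the antitrypsin-like serpina1l at 166 FPKM in the mutant library and 199 FPKM in the wild-type library. The fibrinogen genes fga, fgb and fgg, named after their values were seen, had log2 differences between -0.07 and 0.10. The serum amyloid A gene saa, strongly induced by inflammation in mammals and named after its values were seen, was listed at 0.572 FPKM in the mutant library and at 0 in the wild-type library.

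Cytokine and JAK-STAT genes were spread more widely than the acute phase list. Of 38 measured genes 25 were higher and 13 lower, with a median of 0.09, where 50.9% of all 19112 genes were lower. At 1.5-fold, 4 were higher and 2 lower, beside 7.97% higher and 9.25% lower over all genes. At 2-fold on the log2 difference, 2 were higher and 1 lower, beside 2.87% higher and 3.12% lower over all genes. The leptin gene lepb stood at 11.02 FPKM in the mutant library and 1.83 FPKM in the wild-type library. The interleukin-11 gene il11a, of the interleukin-6 family, was listed at 2.63 FPKM in the mutant library and at 0 in the wild-type library. The authors' own comparison of the 2 libraries called 0 rows of this or any other list.

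The 1 gene of that list at least 2-fold lower on the log2 difference was nfkb1, which encodes an NF-kB subunit. It stood at 2.28 FPKM in the mutant library and 6.07 FPKM in the wild-type library. The kinase gene jak2a was the next lowest, at 4.12 FPKM in the mutant library and 6.86 FPKM in the wild-type library. The abundant cebpd and cebpb, which encode factors that drive acute phase genes in mammals, stood 1.26-fold and 1.29-fold above the wild-type library. The caspase-1 relative caspa stood at 10.5 FPKM in the mutant library and 5.14 FPKM in the wild-type library, a 2.05-fold plain ratio but a log2 difference of 0.91. The gene irg1l stood at 23.0 FPKM in the mutant library and 12.2 FPKM in the wild-type library, and both genes were named after their values were seen.

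Markers of the cells that make these proteins were examined in the same libraries. Of 16 hepatocyte markers, all above 0 in both libraries, 14 were lower and 2 higher in the mutant library, with a median of -0.33. The share lower over all 19112 genes averaging 1 FPKM or more was 50.9%. At 1.5-fold, 6 were lower and 0 higher, beside 9.25% lower and 7.97% higher over all genes averaging 1 FPKM or more. At 2-fold, 1 was lower and 0 higher, beside 3.12% lower and 2.87% higher over the same genes. That marker was ahsg, at 1.60 FPKM in the mutant library and 4.97 FPKM in the wild-type library, a log2 difference of -1.20. A row with the symbol AHSG in capitals is outside the list and was named after its values were seen. It stood at 2.86 FPKM in the mutant library and 5.01 FPKM in the wild-type library, a log2 difference of -0.64. The summed level of the 16 markers was 10314 FPKM in the mutant library and 10327 FPKM in the wild-type library. That sum was set mostly by apoa2, at 7038 FPKM in the mutant library and 6125 FPKM in the wild-type library. The fatty acid binding protein gene fabp10a, named after its values were seen, stood at 485 FPKM in the mutant library and 887 FPKM in the wild-type library, and the vitamin D binding protein gene gc at 41.6 FPKM in the mutant library and 82.5 FPKM in the wild-type library. Other markers were closer to level. The abundant rbp4 stood at 1529 FPKM in the mutant library and 1659 FPKM in the wild-type library, 1.08-fold lower. The 2 higher markers were apoa2 and cp, the latter at 15.5 FPKM in the mutant library and 14.5 FPKM in the wild-type library. The markers tfa, serpina1, cp and ambp are also in the acute phase list.

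Of 13 measured neutrophil and macrophage markers 5 were higher and 8 lower, with a median of -0.10, and none of the 15 found was at 0 in either library. At 1.5-fold, 3 were lower and 0 higher, beside 9.25% lower and 7.97% higher over all genes averaging 1 FPKM or more, of which 50.9% were lower. The list includes il1b itself and summed to 132 FPKM in the mutant library and 136 FPKM in the wild-type library. That sum was set mostly by lyz, nccrp1 and mmp13a. The lysozyme gene lyz stood at 38.8 FPKM in the mutant library and 43.5 FPKM in the wild-type library. The macrophage receptor gene csf1ra and the myeloid factor gene spi1b had the lowest differences. They stood at 2.33 and 1.86 FPKM in the mutant library, against 5.13 and 4.17 FPKM in the wild-type library. The highest differences were those of mmp13a and lcp1. These 2 stood at 24.2 and 3.39 FPKM in the mutant library, against 16.7 and 2.54 FPKM in the wild-type library. The abundant nccrp1 was nearly level, at 40.0 FPKM in the mutant library and 39.0 FPKM in the wild-type library.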

How the data were processed

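RNA from whole larvae was sequenced in 1 library per genotype. The authors deposited 1 table with a value per library for each Ensembl gene ID. The deposited values were read as FPKM from the table's Cuffdiff layout, since no label states the unit. CASAVA, Bowtie and Zv9 are named in the submitters' processing notes, without roles or versions, and the sources used here do not say how reads shared between copies were handled. The p-values and q-values are the authors' own, copied from the deposited table. Coordinates are the table's. Current symbols came from a gene name table that held 21934 of 33733 IDs and 8 of the 9 member rows.

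Rows sharing a symbol were summed (765 symbols). A pseudocount of 1 FPKM, a mean of at least 1 FPKM and a 2-fold call were used, computed with Python 3.11.15, pandas 2.3.3 and numpy 2.4.6. The arithmetic was first checked on wild-type values given fixed shifts and no noise, which cannot show how often 2 real libraries give false calls. Relative depth was read from 350 low rows (mean at most 0.3 FPKM); absolute depth is unknown, so no counting interval is given. Genes named are the members and, per list, the 2 highest, 2 lowest and 2 most abundant, of which some are printed; the text marks genes chosen after their values were seen. The members and 8 wider lists were chosen with earlier results of these data known. The symbol hp covers 2 rows, the larger now named msmbl. No sequence is shown.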

Additional observations from a re-analysis of the deposited data

How the results depend on the processing

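No paired analysis was possible because each genotype has 1 library, and for the same reason no library could be left out. Under 8 other settings (pseudocounts of 0.1 and 5 FPKM, no minimum mean or a mean of at least 5 FPKM, both rescalings, the highest row per symbol, and matching by Ensembl ID) each of the 8 genes kept its direction and stayed within 2-fold, with log2 differences between -0.84 and -0.47 for crp and between -0.72 and -0.11 for c3b. Neither minimum-mean setting could change these differences, since all 8 genes average 5 FPKM or more. Taking the highest row could change only c6, and matching by Ensembl ID changed only c3b. The value of -0.11 for c3b comes from that matching, which takes the current c3b.1 on chromosome 22 in place of the deposited row. It is therefore no check on the deposited c3b row, whose other values lay between -0.72 and -0.38. After rescaling, the median over all genes was -0.01 or 0.02. In the cytokine list, 1 gene was at least 2-fold higher and 0 lower with a pseudocount of 5 FPKM and also with a mean of at least 5 FPKM. In these settings 0 hepatocyte markers were at least 2-fold lower. Among all genes averaging 5 FPKM or more, 3.05% were past 2-fold in either direction at the main pseudocount. With a pseudocount of 0.1 FPKM, 2 complement genes were higher and 2 lower, and 3 cytokine genes were higher. At that pseudocount 3 neutrophil and macrophage markers were lower and 0 higher. The share of all genes past 2-fold was not computed at the pseudocounts of 0.1 and 5 FPKM, so these counts cannot be set beside it. With a 1.5-fold call, added after the data were seen, 2 of the 8 genes, 1 acute phase gene and 6 hepatocyte markers were lower. At that call 4 cytokine genes were higher and 2 lower, and 3 complement genes were higher and 4 lower. The shares over all genes averaging 1 FPKM or more were 7.97% higher and 9.25% lower. Low FPKM rest on few fragments, so differences under about 5 FPKM are the least certain.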
